A study of Caenorhabditis elegans with 9 samples.

Results

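The enzymes of glycolysis from hexokinase to pyruvate kinase were examined in first-stage (L1) larvae of the nematode Caenorhabditis elegans. The members were 10 genes, hxk-1, hxk-2, gpi-1, pfk-1.1, aldo-1, aldo-2, tpi-1, pgk-1, enol-1 and pyk-1, and the rule took every probe set on the array that the platform annotation assigns to 1 of them alone. It found 13 probe sets for 9 of the genes, out of 22548 probe sets tested and 17118 named genes. No probe set carried the symbol of enol-1, which encodes enolase, so that step was not analysed here. The genotypes compared were larvae labelled ogt-1(ok430), for loss of the O-GlcNAc transferase, larvae labelled oga-1(ok1207), for loss of the O-GlcNAcase, and wild type. All had hatched without food in sterile buffer, were collected after 48 h and were fed E. coli OP50 on plates for 3 h before total RNA was taken. There were 3 biological replicates of each genotype, 1 array each, and this number limits the precision throughout. RNA came from whole larvae, so fewer cells of a type and less RNA per cell cannot be told apart.

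Glycolysis breaks glucose down to pyruvate and yields ATP. Hexokinase traps glucose as glucose 6-phosphate, phosphofructokinase carries out the committed step, aldolase splits the sugar, and pyruvate kinase makes pyruvate. The hexosamine pathway leaves glycolysis at fructose 6-phosphate, the product of glucose-6-phosphate isomerase, and ends in UDP-GlcNAc, from which O-GlcNAc transferase (OGT-1) takes the sugar that it attaches to nuclear and cytoplasmic proteins and which the O-GlcNAcase (OGA-1) removes again. In mammals, phosphofructokinase and pyruvate kinase are among the proteins that carry this modification. L1 larvae that hatch without food arrest and live on stores, among them the disaccharide trehalose, until they feed.

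The values are log2 signals as deposited, 1 per probe set and array. Differences are of group means on this scale, with the standard error (SE) and 95% interval of a limma fit over all probe sets. A probe set was called at a Benjamini-Hochberg adjusted p under 0.05 over the 22548 probe sets. Of all probe sets, 2.59% were called for the ogt-1 mutant against wild type, 0.497% for the oga-1 mutant against wild type and 2.89% for the ogt-1 mutant against the oga-1 mutant. An unadjusted p under 0.05 was held by 15.8%, 11.5% and 20.5% of all probe sets in these comparisons, in the same order. Below it is counted beside each list for the ogt-1 mutant against wild type. The suffixes _s_at and _x_at mark probe sets that may cross-hybridise with related sequences. They were carried by 7 of the 13, and values of hxk-2, aldo-1, aldo-2 and pyk-1 rest on such probe sets alone. Signals of different probe sets are not comparable as amounts of RNA, so each was set against itself across genotypes.

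The deleted genes were checked first. At the brightest of its 3 probe sets (181147_s_at), oga-1 had 8.63, 8.74 and 8.88 in the oga-1 mutant, against 9.31, 9.54 and 9.63 in wild type (log2 change -0.75, limma adjusted p = 0.0181). Leaving out oga-1 mutant 1, oga-1 mutant 2, wild type 2 or wild type 3 lost this call (adjusted p = 0.0595 to 0.112). It was also lost in a fit of the 2 groups alone (adjusted p = 0.0659) and with the control gap described below as covariate (-0.75, adjusted p = 0.108). Leaving out 3 arrays, also described below, lost it too (-0.90, adjusted p = 0.0567). The other oga-1 probe sets gave -0.58 (173520_at, limma adjusted p = 0.0648) and -0.30 (171812_x_at, limma adjusted p = 0.373) and were not called. The brighter ogt-1 probe set (173433_s_at) had 11.17 to 11.43 in the ogt-1 mutant, against 10.76 to 10.94 in wild type (0.48 ± 0.17 SE, adjusted p = 0.187). The other (181010_s_at) had 9.97, 9.99 and 9.69 in the ogt-1 mutant, against 9.32, 9.10 and 9.12 in wild type, and was called higher (0.70 ± 0.11 SE, adjusted p = 0.0141), a call lost without ogt-1 mutant 1, wild type 2 or wild type 3 (adjusted p = 0.0527 to 0.0759) and with the control gap described below as covariate (0.76, adjusted p = 0.162). The signal of ogt-1 was thus not lower in the larvae labelled as its mutant. The position of these probe sets relative to the deletion is unknown here, so they do not check the labels, and directions for the ogt-1 mutant rest on the labels. Across probe sets, pairs of arrays correlated with r of 0.992 to 0.997 within a genotype and of 0.985 to 0.995 between genotypes. The mean gap between 3-prime and 5-prime signal of the actin, GAPDH and ubiquitin controls, a measure of RNA integrity called the control gap below, was 1.31 to 1.51 in the ogt-1 mutant, from 1.16 to 1.28 in the oga-1 mutant and 1.27 to 1.35 in wild type. The same gap of the catalase control, not part of that mean, stood at 2.09, 1.32 and 1.82 in the ogt-1 mutant, at 0.98, 1.004 and 1.13 in the oga-1 mutant and at 1.01, 0.72 and 1.12 in wild type, with the ogt-1 mutant above all others (0.79 over wild type, exact permutation p = 0.1). The hybridisation spikes averaged 9.72 to 10.08 in the ogt-1 mutant, 9.50 to 9.77 in the oga-1 mutant and 9.62 to 9.68 in wild type (0.20 over wild type, exact permutation p = 0.1). Markers of adults averaged 6.32 to 6.46 in the ogt-1 mutant, 6.46 to 6.57 in the oga-1 mutant and 6.31 to 6.45 in wild type, while markers of early embryos averaged 6.32 to 6.50 in the ogt-1 mutant, 6.43 to 6.66 in the oga-1 mutant and 6.36 to 6.50 in wild type. No adult or embryo marker, of 7 and 8 measured, was called in any comparison by limma, and for the ogt-1 mutant against wild type 0 and 1 of them had an unadjusted p under 0.05.

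In the ogt-1 mutant 1 glycolysis gene rose relative to wild type, hxk-1. This gene encodes a hexokinase, the enzyme of the first step, and it was called at both of its probe sets. The other 11 probe sets, which cover 8 genes, were not called. Thus 2 of 13 member probe sets were called, both higher, where 2.59% of all probe sets were called, 1.19% higher and 1.4% lower. The median change of the 13 was 0.01, and that of all probe sets was 0.002. With 1 probe set for each of the 9 genes, the median was -0.09.

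At probe set 173814_at, which carries no mark, hxk-1 had signals of 12.08, 12.13 and 12.07 in the ogt-1 mutant, of 11.36, 11.29 and 11.08 in the oga-1 mutant and of 11.08, 11.30 and 11.17 in wild type. All 3 ogt-1 mutant arrays lay above all 6 others, and the oga-1 mutant arrays overlapped those of wild type. The means were 12.09 ± 0.032 in the ogt-1 mutant and 11.18 ± 0.112 in wild type (SD, n = 3 each). The signal was 1.88-fold higher in the ogt-1 mutant (log2 change 0.91 ± 0.10 SE, 95% interval 0.70 to 1.12, limma adjusted p = 0.00177), which placed it at rank 32 of the 22548 probe sets by p.

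The second hxk-1 probe set, 188584_s_at, had signals of 11.47, 11.63 and 11.37 in the ogt-1 mutant, of 10.91, 10.86 and 10.67 in the oga-1 mutant and of 10.83, 10.91 and 10.64 in wild type. Here too the ogt-1 mutant arrays lay above all others without overlap. The rise was 1.62-fold (log2 change 0.70 ± 0.11 SE, 95% interval 0.46 to 0.94, limma adjusted p = 0.0118). Its interval overlaps that of the other probe set, and whether the 2 rises differ was not tested.

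**Figure D1:**
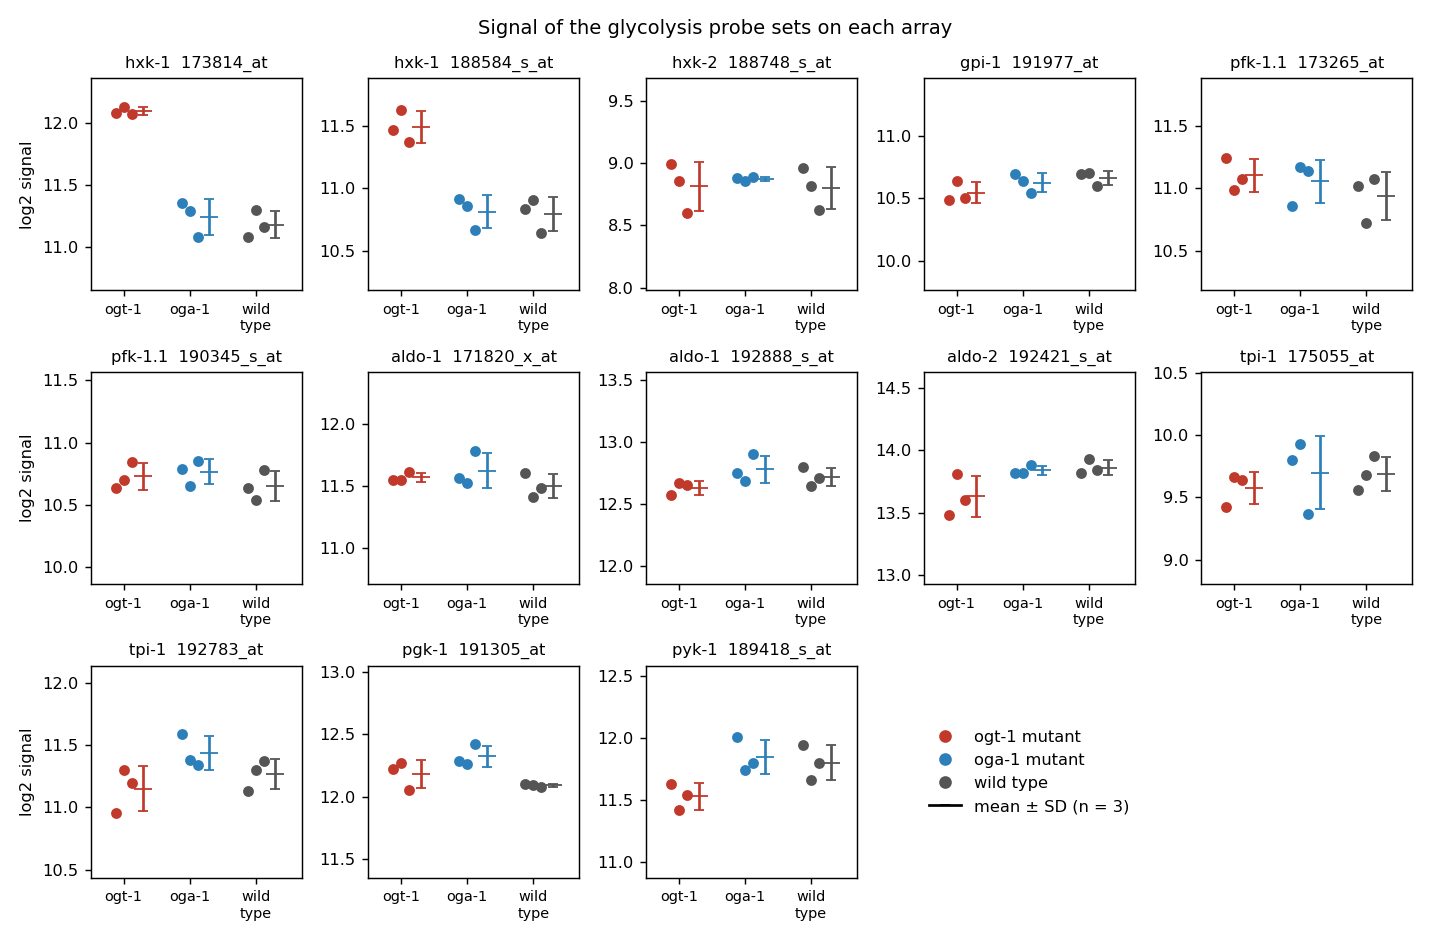
Log2 signal of each glycolysis probe set (panels, in the order of the pathway) on each array, with ogt-1 mutant, oga-1 mutant and wild type from left to right and the mean ± SD of the 3 arrays beside the points. Every panel spans the same height on the log2 scale. In the 2 hxk-1 panels the 3 ogt-1 mutant arrays sit above the other 6, and in the hxk-2, pfk-1.1, aldo-1 and tpi-1 panels the ogt-1 mutant and wild-type points overlap.

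Both hxk-1 calls held when any 1 of the 9 arrays was left out, with adjusted p from 0.00228 to 0.0120 at 173814_at and from 0.0163 to 0.0448 at 188584_s_at. The count of 2 of 13 became 1 in each of 2 other settings. In 1 of them 3 arrays were left out. These were ogt-1 mutant 1, at 1 end of the first principal component, and oga-1 mutant 3 and wild type 1, at the ends of the second. Without these arrays 173814_at kept its call (0.87, adjusted p = 0.0175) and 188584_s_at did not (0.73, adjusted p = 0.0620). With the control gap as a covariate, 173814_at stayed just under the threshold (0.90, adjusted p = 0.04999) and 188584_s_at did not (0.81, adjusted p = 0.0939), in a fit that called 0.217% of all probe sets.

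The other hexokinase genes were not called. The member hxk-2 (188748_s_at) had signals of 8.99, 8.86 and 8.60 in the ogt-1 mutant, of 8.88, 8.85 and 8.89 in the oga-1 mutant and of 8.96, 8.81 and 8.63 in wild type. Arrays of all genotypes overlapped, and the difference of 0.01 had a 95% interval of -0.25 to 0.27. The third hexokinase gene, hxk-3 (186626_s_at), which is no member, differed by 0.09 ± 0.10 SE (adjusted p = 0.764).

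Within an array, the signal of hxk-1 (173814_at) minus that of hxk-2 was 3.09, 3.27 and 3.47 in the ogt-1 mutant, against 2.12, 2.49 and 2.54 in wild type, and the groups did not overlap. The difference of 0.89 has a two-sided exact permutation p of 0.1, the smallest that 3 arrays against 3 can give, and 0.3 after adjustment over the 6 paralogue comparisons made. Against the oga-1 mutant, where this value was 2.48, 2.43 and 2.20, the difference was 0.91 with the same exact permutation p of 0.1. The oga-1 mutant and wild type differed by -0.015 (exact permutation p = 0.9, adjusted p = 0.9).

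The steps from glucose 6-phosphate to the triose phosphates gave no call. The isomerase gene gpi-1 (191977_at), whose product makes fructose 6-phosphate, had signals of 10.49, 10.64 and 10.504 in the ogt-1 mutant, of 10.70, 10.64 and 10.54 in the oga-1 mutant and of 10.70, 10.70 and 10.60 in wild type. The ogt-1 mutant and wild-type ranges overlapped, with a difference of -0.12 ± 0.08 SE (adjusted p = 0.551). The phosphofructokinase gene pfk-1.1 differed by 0.17 ± 0.12 SE at 173265_at and by 0.08 ± 0.10 SE at 190345_s_at, and the arrays of the 3 genotypes overlapped at both, between 10.72 and 11.25 and between 10.54 and 10.85.

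Aldolase is encoded by a pair of genes, aldo-1 and aldo-2. The more strongly hybridising aldo-1 probe set (192888_s_at) had signals of 12.57, 12.67 and 12.65 in the ogt-1 mutant, of 12.75, 12.69 and 12.90 in the oga-1 mutant and of 12.80, 12.65 and 12.71 in wild type. It differed by -0.09 between the ogt-1 mutant and wild type and the other (171820_x_at) by 0.07, so the probe sets disagreed in sign and neither was called. The aldo-2 probe set (192421_s_at) had signals of 13.48, 13.81 and 13.60 in the ogt-1 mutant, of 13.82, 13.82 and 13.88 in the oga-1 mutant and of 13.82, 13.93 and 13.84 in wild type. The ogt-1 mutant arrays lay below the wild-type arrays by a narrow margin, with a difference of -0.23 ± 0.09 SE (unadjusted p = 0.0334, adjusted p = 0.261), so it failed the correction. The within-array difference of aldo-1 minus aldo-2 was -0.999 ± 0.118 in the ogt-1 mutant and -1.14 ± 0.130 in wild type (SD, n = 3 each, exact permutation p = 0.3, adjusted p = 0.6).

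In the later steps of the pathway, tpi-1 (triosephosphate isomerase) differed by -0.11 ± 0.14 SE at 175055_at and by -0.12 ± 0.12 SE at 192783_at between the ogt-1 mutant and wild type, with overlapping arrays at both. The phosphoglycerate kinase gene pgk-1 (191305_at) had signals of 12.22, 12.27 and 12.06 in the ogt-1 mutant, of 12.29, 12.26 and 12.42 in the oga-1 mutant and of 12.10, 12.09 and 12.08 in wild type. Its difference between the ogt-1 mutant and wild type was 0.09 ± 0.09 SE (adjusted p = 0.688).

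The pyruvate kinase gene pyk-1 (189418_s_at), at the last step, had signals of 11.63, 11.42 and 11.54 in the ogt-1 mutant, of 12.005, 11.74 and 11.80 in the oga-1 mutant and of 11.94, 11.66 and 11.80 in wild type. All 3 ogt-1 mutant arrays lay below all 6 others, the reverse of hxk-1. The difference from wild type was -0.27 ± 0.11 SE (unadjusted p = 0.0287, adjusted p = 0.244), so it was not called.

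Over the 11 probe sets of genes other than hxk-1, the differences between the ogt-1 mutant and wild type ran from -0.27 to 0.17, 5 above 0 and 6 below, and their 95% intervals stayed between -0.51 and 0.45. The arrays of the ogt-1 mutant and wild type did not overlap at 4 of the 13 member probe sets (the 2 of hxk-1, aldo-2 and pyk-1), where they did not overlap at 21% of all probe sets. Across the 9 arrays, the signal of the other 11 probe sets correlated with that of hxk-1 (173814_at) with r from -0.79 (pyk-1) to 0.22 (pfk-1.1, 173265_at), a description of these 9 arrays, which hold the genotype difference of hxk-1.

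**Figure D2:**
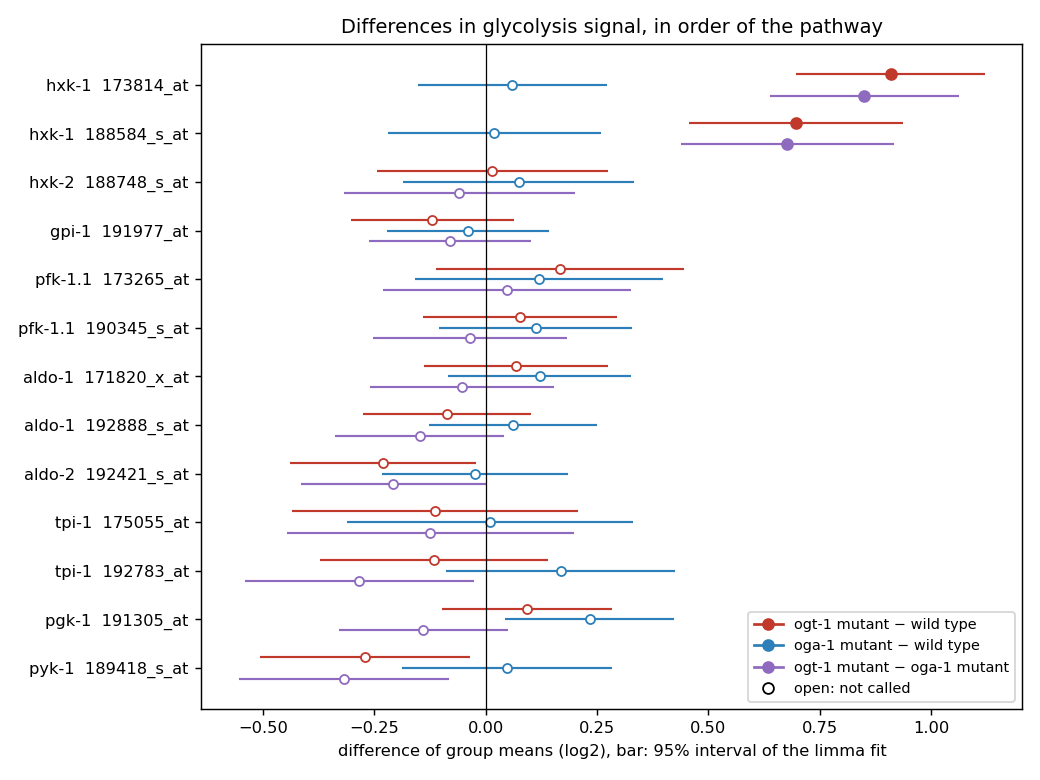
Differences of group means (log2, points) with 95% intervals of the limma fit (bars) for each glycolysis probe set, in the order of the pathway from top to bottom. For each probe set the ogt-1 mutant minus wild type, the oga-1 mutant minus wild type and the ogt-1 mutant minus the oga-1 mutant are shown, filled where called. The only filled points are those of hxk-1, at 0.91 and 0.70 against wild type and 0.85 and 0.68 against the oga-1 mutant.

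In the oga-1 mutant no member was called against wild type. Of the 13 probe sets, 0 were called by limma for the oga-1 mutant against wild type, where 0.497% of all probe sets were (0.386% higher and 0.111% lower), and 1 of the 13 had an unadjusted p under 0.05. That was pgk-1, whose values above did not overlap between the oga-1 mutant and wild type, as at 16.1% of all probe sets (0.23 ± 0.09 SE, unadjusted p = 0.0213, adjusted p = 0.347). The hxk-1 probe sets gave 0.06 (95% interval -0.15 to 0.27) at 173814_at and 0.02 (95% interval -0.22 to 0.26) at 188584_s_at. The median of the 13 was 0.06 and that of all probe sets 0.01. The 95% intervals of all 13 lay between -0.31 and 0.42. This comparison uses the same 3 wild-type arrays as the ogt-1 mutant, so the 2 sets of values share the chance deviations of those arrays.

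Comparing the mutants with each other needs no wild-type array for the group means. Again hxk-1 was called at both probe sets and no other member was, 2 of 13 higher and 0 lower, where 1.32% and 1.57% of all probe sets were called higher and lower. The hxk-1 signal was 1.80-fold higher in the ogt-1 mutant than in the oga-1 mutant at 173814_at (log2 change 0.85 ± 0.10 SE, limma adjusted p = 0.00289) and 1.60-fold higher at 188584_s_at (0.68 ± 0.11 SE, adjusted p = 0.0132). Both calls held without any 1 of the 9 arrays. The mutants did not overlap in the control gap, and with it as a covariate both calls were lost (0.83, adjusted p = 0.361, and 0.86, adjusted p = 0.392), while 0.0399% of all probe sets were called in that fit. Without the 3 arrays at the ends of the components 173814_at was called (0.78, adjusted p = 0.0262) and 188584_s_at was not (0.62, adjusted p = 0.0922). The mutants' arrays did not overlap at 6 of the 13 (hxk-1 at both, aldo-1 192888_s_at, aldo-2, tpi-1 192783_at and pyk-1) and at 22.9% of all probe sets. Of the other 11 probe sets 1 was above 0 and 10 below, and the median of the 13 was -0.08, against -0.02 for all probe sets. The lowest were pyk-1 at -0.32 ± 0.11 SE (unadjusted p = 0.0132, adjusted p = 0.134) and tpi-1 (192783_at) at -0.28 ± 0.12 SE (unadjusted p = 0.0333, adjusted p = 0.205).

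**Figure D3:**
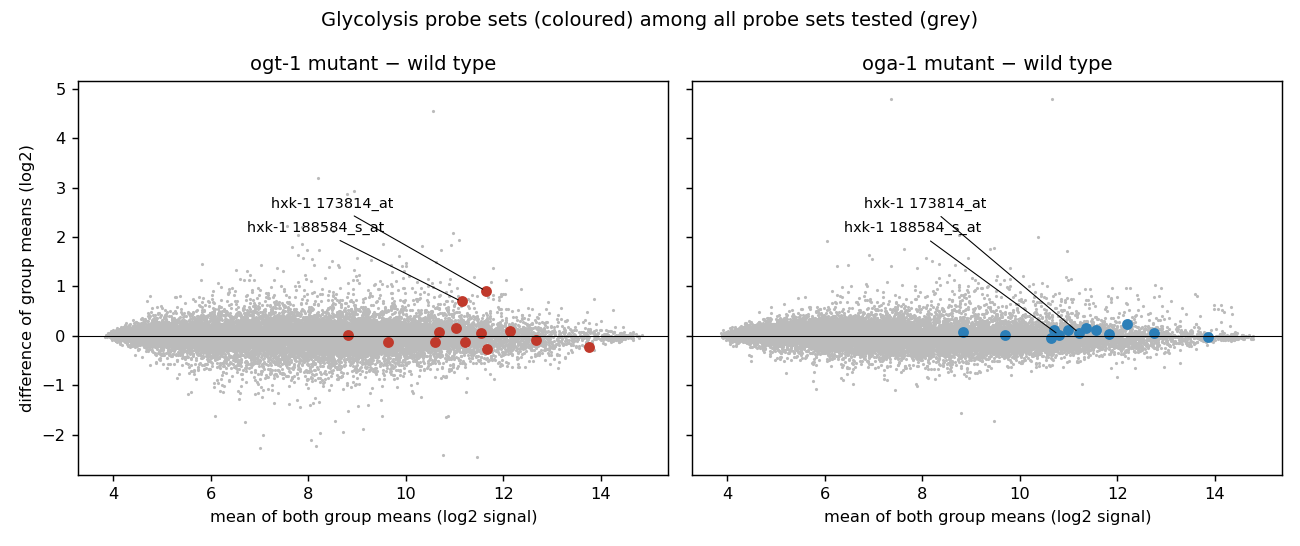
Difference of group means (log2, vertical axis) against the mean of both group means (log2 signal, horizontal axis) for all probe sets (grey) and the 13 glycolysis probe sets (coloured), with the ogt-1 mutant minus wild type on the left and the oga-1 mutant minus wild type on the right. The 2 hxk-1 probe sets, at 0.91 and 0.70, leave the band of the other members in the left panel, and in the right panel, at 0.06 and 0.02, they lie within it.

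The enzymes of glycolysis that are no members gave no call in any comparison. In the ogt-1 mutant against wild type, 0 of 6 measured were called by limma and 1 had an unadjusted p under 0.05, with a median of -0.09. That was pyk-2, the second pyruvate kinase gene, with signals of 10.27, 10.47 and 10.18 in the ogt-1 mutant, of 10.40, 10.44 and 10.06 in the oga-1 mutant and of 10.40, 11.04 and 10.92 in wild type. Wild type 1 lay within the range of the mutants, and the differences of -0.48 ± 0.17 SE (adjusted p = 0.196, ogt-1 mutant) and -0.49 ± 0.17 SE (adjusted p = 0.320, oga-1 mutant) failed the correction and share the wild-type arrays. The glyceraldehyde-3-phosphate dehydrogenase genes gpd-2 and gpd-3 gave -0.04 and -0.14 in the ogt-1 mutant, and the phosphoglycerate mutase gene ipgm-1 gave -0.18 there and 0.23 in the oga-1 mutant (-0.41 between the mutants, adjusted p = 0.0664). The GAPDH control probe sets of the array gave -0.02 (3-prime), -0.12 (middle) and -0.15 (5-prime) for the ogt-1 mutant against wild type, with exact permutation p of 0.8, 0.3 and 0.2.

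Genes that supply glucose or regulate its use were described next, from lists chosen with earlier results of these data known, 1 probe set per gene. Of 12 genes of glycogen and trehalose, 1 rose in the ogt-1 mutant, tre-2 (190186_s_at), which encodes a trehalase, an enzyme that splits trehalose into glucose. It had signals of 12.42, 12.64 and 12.81 in the ogt-1 mutant, of 11.42, 11.40 and 11.48 in the oga-1 mutant and of 11.37, 11.53 and 11.54 in wild type, with the ogt-1 mutant above all others. It was 2.20-fold higher in the ogt-1 mutant than in wild type (log2 change 1.14 ± 0.11 SE, limma adjusted p = 8.11e-04), a call that held in all 16 alternative settings. Of the 12 genes 5 had an unadjusted p under 0.05, tre-2 included, and the list's median was 0.20. The other 11 were not called. Among them tre-5, another trehalase gene, gave 0.40 ± 0.10 SE (adjusted p = 0.0709), and the glycogenin genes gyg-2 and gyg-1, whose products prime glycogen synthesis, gave -0.51 (adjusted p = 0.0969) and 0.62 (adjusted p = 0.179).

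Of 8 genes of gluconeogenesis and the glyoxylate cycle, 1 rose in the ogt-1 mutant, icl-1 (191712_s_at), whose product carries out the reactions particular to the glyoxylate cycle (0.52 ± 0.12 SE, adjusted p = 0.0479). Leaving out wild type 1 kept that call, and leaving out any other single array lost it (adjusted p = 0.0543 to 0.174), as did quantile normalization (0.50, adjusted p = 0.0683), a fit of the 2 groups alone (adjusted p = 0.0918), leaving out the 3 arrays (0.64, adjusted p = 0.0632) and the control gap (0.50, adjusted p = 0.421). A second icl-1 probe set (173301_s_at) was also called higher (0.74 ± 0.13 SE, adjusted p = 0.0182). That call was lost without ogt-1 mutant 1, ogt-1 mutant 3, wild type 2 or wild type 3 (adjusted p = 0.0510 to 0.0726), in the fit of 2 groups (adjusted p = 0.0605) and with the control gap (0.66, adjusted p = 0.306). The remaining icl-1 probe set (194142_x_at) was not called (0.48, limma adjusted p = 0.0528). In the oga-1 mutant against wild type icl-1 gave 0.27 at 191712_s_at, 0.40 at 173301_s_at and 0.18 at 194142_x_at, none called (limma adjusted p = 0.407, 0.268 and 0.568). Between the mutants no icl-1 probe set was called (limma adjusted p = 0.265, 0.168 and 0.161). The phosphoenolpyruvate carboxykinase genes pck-1 and pck-2 gave 0.31 (adjusted p = 0.474) and 0.18 (adjusted p = 0.377), and the list's median was 0.19. Of the 8 genes 1 had an unadjusted p under 0.05, icl-1. Of 6 regulators of glycolytic flux 0 were called by limma in the ogt-1 mutant and 3 had an unadjusted p under 0.05, with a median of 0.14. Among them pfkb-1.1, of the phosphofructokinase-2 family that sets the level of the activator fructose 2,6-bisphosphate, gave 0.34 ± 0.09 SE (adjusted p = 0.0746), and mml-1, a Mondo-family transcription factor that in mammals responds to glucose 6-phosphate, gave 0.31 ± 0.08 SE (adjusted p = 0.0828).

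Between the mutants 2 of these 6 regulators were higher in the ogt-1 mutant, mml-1 (0.37, adjusted p = 0.0408) and aak-1, a catalytic subunit of AMP-activated kinase (0.40, adjusted p = 0.0199). Leaving out a single array other than ogt-1 mutant 1 or wild type 1 lost the call of mml-1 (adjusted p = 0.0636 to 0.127), whose other called probe set (175004_at, 0.48, adjusted p = 0.0488) lost its call without 7 of the 9 single arrays, the exceptions being oga-1 mutant 2 and wild type 1 (adjusted p = 0.0785 to 0.132). That of aak-1 was lost by leaving out ogt-1 mutant 1, ogt-1 mutant 3, oga-1 mutant 2 or oga-1 mutant 3 (adjusted p = 0.0523 to 0.0653). Both genes' calls were also lost with the control gap and without the 3 arrays. A fit of the 2 groups alone lost them too (mml-1 adjusted p = 0.0949 and 0.0956 at 175004_at, aak-1 adjusted p = 0.0593). Trended robust moderation lost both mml-1 calls (adjusted p = 0.0529 and 0.0511 at 175004_at). Quantile normalization lost that of 175004_at (adjusted p = 0.0732). In the glycogen and trehalose list tre-2 was higher in the ogt-1 mutant than in the oga-1 mutant (1.19, adjusted p = 5.87e-04) and gyg-2 lower (-0.66, adjusted p = 0.0408). Leaving out a single array other than oga-1 mutant 2 or wild type 1 lost the call of gyg-2 (adjusted p = 0.0549 to 0.119). It was also lost without the 3 arrays at the ends of the components (-0.41, adjusted p = 0.131) and with the control gap as covariate (-0.31). The fit of the 2 groups alone lost it as well (adjusted p = 0.0790). The call of tre-2 was lost with the control gap (1.17, adjusted p = 0.163).

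Of 7 genes of the hypoxia response, a program that in many animals includes glycolysis enzymes, 1 rose in the ogt-1 mutant. This was rhy-1 (181520_at), a negative regulator of the hypoxia-inducible factor HIF-1 that HIF-1 itself induces, with signals of 11.64, 11.30 and 11.28 in the ogt-1 mutant, of 10.38, 10.18 and 10.15 in the oga-1 mutant and of 10.57, 10.13 and 10.38 in wild type. It was 2.06-fold higher than in wild type (1.05 ± 0.14 SE, adjusted p = 0.00573), a call lost with the control gap as a covariate (0.98, adjusted p = 0.128). Of the other 6, nhr-57 and cysl-2 gave 0.53 each (adjusted p = 0.124 and 0.158), and the list's median was 0.02. An unadjusted p under 0.05 was held by 3 of the 7 genes, rhy-1, nhr-57 and cysl-2. Between the mutants rhy-1 was higher (1.17, adjusted p = 0.00343) and the carbonic anhydrase gene cah-4 lower (-0.72, adjusted p = 0.0113) in the ogt-1 mutant, a call of cah-4 that was lost without the 3 arrays at the ends of the components (-0.58, adjusted p = 0.0818) and, like that of rhy-1, with the control gap (adjusted p = 0.728 and 0.514).

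The branches that take carbon from glycolysis or its end product gave few calls. Of 10 genes acting on pyruvate 0 were called by limma in the ogt-1 mutant and 2 had an unadjusted p under 0.05, with a median of 0.07. The largest difference was that of pdhk-2, a pyruvate dehydrogenase kinase (-0.32 ± 0.10 SE, adjusted p = 0.125), and dlat-1, of the pyruvate dehydrogenase complex, gave -0.25 (adjusted p = 0.299). Of 7 genes of the pentose phosphate pathway 0 were called by limma and 2 had an unadjusted p under 0.05, with a median of -0.23. The ribose-5-phosphate isomerase gene rpia-1 gave -0.33 (adjusted p = 0.234). Of 6 genes of the hexosamine branch and O-GlcNAc cycling 0 were called by limma at the brightest probe set in the ogt-1 mutant and 2 had an unadjusted p under 0.05, with a median of 0.04, while ogt-1 was called higher at its other probe set, as given above. The gene of the entry enzyme, gfat-1, gave -0.07 (adjusted p = 0.875).

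In the oga-1 mutant against wild type, the call among all 62 measured genes of these lists was that of oga-1 itself, lower as given above. The list medians there were 0.005 for the other glycolysis enzymes, -0.04 for the regulators, 0.10 for the pyruvate genes, 0.17 for gluconeogenesis and the glyoxylate cycle, -0.12 for the pentose phosphate pathway, 0.05 for glycogen and trehalose, -0.21 for the hexosamine branch and 0.13 for the hypoxia response. Between the mutants oga-1 (0.86, adjusted p = 0.00402) and ogt-1 (0.78, adjusted p = 0.0418) were also called higher in the ogt-1 mutant. The call of oga-1 was lost with the control gap (adjusted p = 0.428), and that of ogt-1 was lost by leaving out a single array other than oga-1 mutant 2 or wild type 1 (adjusted p = 0.0653 to 0.123). This ogt-1 call was also lost without the 3 arrays (0.56, adjusted p = 0.178), in the fit of the 2 groups alone (adjusted p = 0.0815) and with the control gap (0.57). At 181010_s_at ogt-1 was called higher too (0.78, adjusted p = 0.00857), a call that held without each single array and was lost without the 3 arrays (adjusted p = 0.0638) and with the control gap (adjusted p = 0.515).

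**Figure D4:**
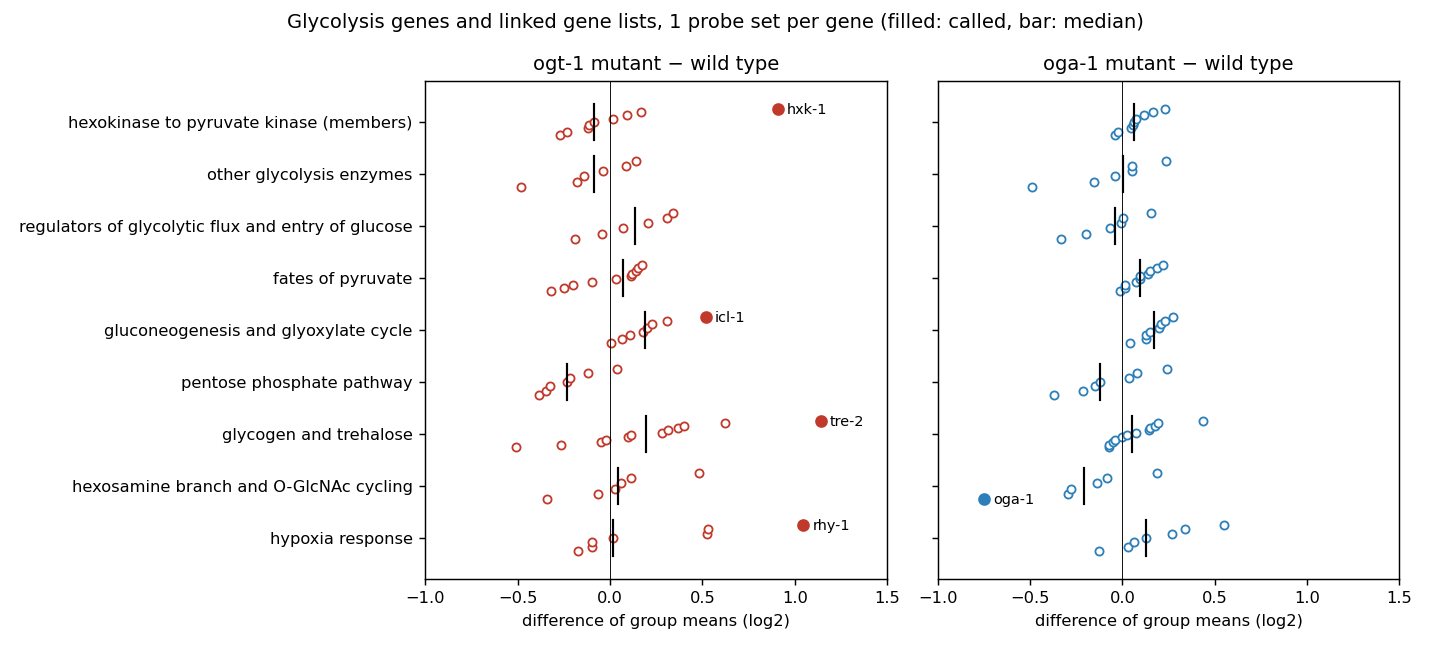
Differences of group means (log2) for the glycolysis genes (top row) and the genes of 8 linked lists, 1 point per gene from the probe set with the highest mean, with the ogt-1 mutant minus wild type on the left and the oga-1 mutant minus wild type on the right. Filled and named points were called and black bars are the medians. On the left hxk-1 (0.91), icl-1 (0.52), tre-2 (1.14) and rhy-1 (1.05) were called, and on the right oga-1 (-0.75).

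Markers of tissues were read beside the rise of hxk-1. Markers of the intestine averaged 10.71 to 11.06 in the ogt-1 mutant, 11.003 to 11.31 in the oga-1 mutant and 11.20 to 11.34 in wild type, so all ogt-1 mutant arrays lay below all of wild type. Of 9 intestine markers 2 fell in the ogt-1 mutant, the transcription factor gene elt-7 (-0.77, adjusted p = 0.0481) and the sodium/proton exchanger gene nhx-2 (-0.74, adjusted p = 0.0444), 0 rose, and the median was -0.42. An unadjusted p under 0.05 was held by 5 of the 9, among them the intestinal transcription factor gene elt-2 (-0.66, adjusted p = 0.0535). The call of elt-7 held without ogt-1 mutant 2 or wild type 1, that of nhx-2 without oga-1 mutant 1 or oga-1 mutant 3, and each was lost without any other single array (adjusted p = 0.0720 to 0.177 and 0.0577 to 0.151). Both were lost with the control gap as covariate (-0.57 and -0.73, adjusted p = 0.561 and 0.379). They were also lost without the 3 arrays at the ends of the components (adjusted p = 0.0764 and 0.0502). The call of elt-7 was lost in a fit of the 2 groups alone as well (adjusted p = 0.119). Markers of body wall muscle averaged 12.34 to 12.53 in the ogt-1 mutant, 12.61 to 12.66 in the oga-1 mutant and 12.31 to 12.52 in wild type. Those of the pharynx averaged 11.01 to 11.22 in the ogt-1 mutant, 10.90 to 11.12 in the oga-1 mutant and 10.86 to 11.46 in wild type. In both tissues the arrays of the ogt-1 mutant and of wild type overlapped. Markers of neurons averaged 10.41 to 10.55 in the ogt-1 mutant, 10.22 to 10.28 in the oga-1 mutant and 10.31 to 10.44 in wild type. Those of the hypodermis averaged 6.90 to 7.09 in the ogt-1 mutant, 7.09 to 7.35 in the oga-1 mutant and 6.98 to 7.10 in wild type, again with overlap between the ogt-1 mutant and wild type for both. Of these 4 lists 0 genes were called by limma for the ogt-1 mutant against wild type, and 1 of 10 (muscle), 1 of 5 (pharynx), 2 of 6 (neurons) and 1 of 6 (hypodermis) had an unadjusted p under 0.05. Between the mutants the muscle gene tnt-2 was lower (adjusted p = 0.0313) and the neuronal gene rgef-1 higher (adjusted p = 0.0338) in the ogt-1 mutant. The call of tnt-2 held without ogt-1 mutant 2, wild type 1 or wild type 2, that of rgef-1 without oga-1 mutant 1 or wild type 1, and each was lost without any other single array (adjusted p = 0.0521 to 0.1004 and 0.0542 to 0.109). With the control gap as covariate tnt-2 gave -0.36 and rgef-1 0.34, against -0.94 and 0.58 without it, and both calls were lost, as they were without the 3 arrays at the ends of the components (adjusted p = 0.136 and 0.0773). The fit of the 2 groups alone also lost both (adjusted p = 0.0593 and 0.0657). The part of these tissues, of the catalase gap and of the spikes in the hxk-1 result was not tested.

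The genes whose pattern was most like the glycolysis genes as a group were found from the mean of the 9 member genes, each centred on its own mean, which ran from -0.06 to 0.06 on the log2 scale over the 9 arrays. Among 5344 other genes with an unmarked probe set of at least median signal, F53B3.6, irg-5, mbug-1, rsu-1 and spig-6 had the highest correlations with it, r from 0.911 to 0.972 over 9 arrays. Picking the highest of 5344 over 9 arrays by itself brings high r, and no p was computed. With hxk-1 (173814_at) alone, a choice made after its values were seen, the highest were K11H12.3 (r = 0.969), the C-type lectin gene clec-3 (r = 0.958), slc-36.4 and slc-17.5, genes of solute carrier families (r = 0.947 and 0.944), and gst-4, a glutathione S-transferase gene (r = 0.932). All 5 were called higher in the ogt-1 mutant against wild type, by 0.97 to 1.86, which the choice by likeness to hxk-1 brings with it.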

How the data were processed

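The deposited values are log2 signals of 22625 probe sets on 9 Affymetrix arrays, each from 4 ug of total RNA per the labels' protocols. MAS5, RMA and Partek are named, with no role, in the submitters' processing notes. How the authors scaled the signals, and whether the logarithm is to base 2, is not stated, and log2 was read from the range of 3.74 to 14.9. Array medians are nearly equal, so a shift of most genes together is not visible here, and detection was not assessed.

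The tests used 22548 probe sets, without 77 controls. The fit was limma 3.58.1 (R 4.3.3) on 9 arrays, 1 coefficient per genotype, no block, with 6 residual degrees of freedom and 3.92 from moderation, tested on simulated data. Single values had two-sided exact permutation tests (smallest p 0.1). Names come from probe sets with 1 symbol (20766, while 887 have several and 895 none). All member probe sets are given, and up to 4 genes of each list, called ones first, then by p (any gene of a list of 8 or fewer). The probe set of highest mean stood for a list gene. Members and lists were chosen with earlier results of these data known. Sequences were not used here.

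Deviations from group means of same-numbered arrays correlated with r of 0.192, 0.100 and 0.303 (ogt-1 mutant, wild type), 0.107, 0.200 and 0.322 (both mutants) and 0.120, 0.0052 and 0.214 (oga-1 mutant, wild type). The labels do not say that same-numbered arrays belong together. The main fit did not pair them, and the replicate block was run only as an alternative. Alternatives were quantile normalization, a filter on mean signal, the replicate block, 2 groups alone, trended robust moderation, the control gap as covariate, and arrays left out. Those for list genes were chosen after seeing the data.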

Additional observations from a re-analysis of the deposited data

How the results depend on the processing

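Both hxk-1 rises kept their direction in all 16 alternatives. For the ogt-1 mutant against wild type the count of called members was 1 without the 3 arrays at the ends of the components and 1 with the control gap as covariate, and against the oga-1 mutant 1 and 0. It was 2 without each single array. No setting run called a member for the oga-1 mutant against wild type (0). The replicate block changed no member call (2, 0 and 2, hxk-1 adjusted p = 0.00256 and 0.00434 against wild type), while the share of all probe sets called was 4.59% for the ogt-1 mutant against wild type and 5% against the oga-1 mutant. Without single arrays the median of the members ran from -0.045 to 0.067 (ogt-1 mutant against wild type), 0.056 to 0.10 (oga-1 mutant against wild type) and -0.13 to -0.053 (between the mutants). For the oga-1 mutant it was 0.090 with quantile normalization and 0.11 without the 3 arrays. Between the mutants it was -0.11 with quantile normalization and 0.016 with the control gap. With the other aldo-1 probe set, aldo-1 minus aldo-2 moved to 0.30 for the ogt-1 mutant against wild type. Some uncalled differences changed sign, among them that of aldo-2 between the mutants, which was -0.21 with no covariate, and the cause was not tested. With the control gap, between the mutants, these were aldo-1 (171820_x_at, 0.018), aldo-2 (0.016), gpi-1 (0.025), hxk-2 (0.13), pfk-1.1 (173265_at, -0.16) and pgk-1 (0.049), and for the oga-1 mutant hxk-1 (188584_s_at, -0.048). Without the 3 arrays they were aldo-1 (171820_x_at, 0.036) and pfk-1.1 (190345_s_at, 0.053) between the mutants and gpi-1 (0.018) for the oga-1 mutant. Without single arrays, ranges crossed 0 between the mutants for aldo-1 (171820_x_at, -0.10 to 0.027), hxk-2 (-0.15 to 0.048) and pfk-1.1 (173265_at, -0.051 to 0.10, and 190345_s_at, -0.095 to 0.011). For the ogt-1 mutant against wild type this held for hxk-2 (-0.072 to 0.12). For the oga-1 mutant against wild type it held for aldo-2 (-0.046 to 0.0095), gpi-1 (-0.074 to 0.0034), hxk-1 (188584_s_at, -0.057 to 0.092), hxk-2 (-0.013 to 0.16), pyk-1 (-0.029 to 0.12) and tpi-1 (175055_at, -0.10 to 0.18). Signal over background was not assessed, so changes of low signals may be understated.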

Other observations

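The neighbours of hxk-1 were looked at after its rise was seen, in the gene order of the RefSeq annotation of assembly WBcel235. The nearest measured protein-coding gene on one side, F14B4.1, lay 1 gene away and gave 0.42 ± 0.12 SE in the ogt-1 mutant against wild type (limma adjusted p = 0.125). On the other side rpoa-2, a gene of an RNA polymerase subunit, gave 0.08 ± 0.19 SE (adjusted p = 0.912). The next measured genes were ent-6 (0.30, adjusted p = 0.308), tat-5 (-0.17, adjusted p = 0.451), prom-1 (-0.08, adjusted p = 0.865) and phac-1 (-0.14, adjusted p = 0.760). The probe sets of F14B4.1, rpoa-2 and ent-6 are marked for cross-hybridisation. Thus 0 of these 6 genes were called by limma, and 2 of them, F14B4.1 and ent-6, had an unadjusted p under 0.05.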
